A study of Homo sapiens with 35 samples.

Results

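The 300 highest-scoring clusters of distal open chromatin in human embryonic stem cell-derived blood progenitors were selected from a pooled ATAC-seq peak list. Peaks on chromosomes 1 to 22 entered when their fold enrichment was at least 10 and their summit lay over 1 kb from both ends of every RefSeq protein-coding gene. Of 308732 peaks in the list, 54493 met these conditions. Neighbours separated by at most 12500 bases were joined, which gave 31095 clusters, 5162 of them with at least 3 peaks. Each cluster was scored as the sum of peak width times fold, given here in fold-kb (1 fold-kb is a peak of 1 kb at 1-fold), and the 300 clusters with the highest score were kept. They hold 2396 peaks. Position, width, fold and score therefore chose the clusters, and these values are given as a description without a test.

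Every library was made from cells of the H1 line, established from a human embryo and pluripotent, after differentiation to haematopoietic progenitors. The labels list 35 libraries in 18 groups of 1 to 3, taken on 6 days from day 10 to day 20, whereas the series' design text counts 44 libraries. Cells named doxee17 were treated with doxycycline, which per the design text switches on ectopic MYC (12 libraries), or left untreated (11 libraries), all labelled batch 1. Cells named h1 were left untreated (12 libraries) and are labelled batch 2, so the cell name and the batch cannot be told apart. The list names no library, so no value below has a replicate error, no group of libraries could be compared, and a peak may come from any part of the pool. The deposited fold is a linear ratio of the pileup at the summit to background, and fold and p-value of 358 sampled peaks gave a median implied background of 93.4. If that background holds for every peak, the 95% Poisson interval, which covers counting error only, is 9.37 to 10.7 for a 10-fold peak and 31.4 to 33.8 at the median fold of the clusters' peaks, 32.6.

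ATAC-seq uses a transposase that inserts adapters where DNA is not wrapped in nucleosomes, so promoters, enhancers and other regulatory elements appear as peaks. Enhancers are often grouped, and dense groups are a known feature around genes that define a cell type. In blood progenitors, factors of the GATA, RUNX, ETS, TAL1 and AP-1 families bind many such elements. ATAC-seq alone measures accessibility, not enhancer activity.

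The sequences below show what the clusters hold at named transcript starts. Each is the 250 bases just upstream of a RefSeq start (GRCh38.p14) that lies, with the 50 bases after it, wholly under a peak of the 300 clusters. They were chosen after the values were seen, for blood, vessel and AP-1 genes of the gene lists. Capitals mark matches on either strand. For the GATA family the letters searched were AGATAA and, equally, TGATAA. RUNX factors were searched as TGTGGT. For the AP-1 family the search used TGANTCA. ETS factors were searched as AGGAAG. The E-box, searched as CACGTG, had no match in these 6 sequences. The same holds for the SP and KLF families, searched as GGGGCGGGG. Overlapping matches are merged in the print and counted singly.

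GFI1B, an inner start, chr9:132978444-132978693, plus strand, with 1 GATA match: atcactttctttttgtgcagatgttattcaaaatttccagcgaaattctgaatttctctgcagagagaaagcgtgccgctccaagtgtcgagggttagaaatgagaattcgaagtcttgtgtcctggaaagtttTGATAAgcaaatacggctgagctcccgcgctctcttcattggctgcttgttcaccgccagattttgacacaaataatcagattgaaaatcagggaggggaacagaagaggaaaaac
EGFL7, an inner start, chr9:136662666-136662915, plus strand, with 1 GATA and 2 ETS matches: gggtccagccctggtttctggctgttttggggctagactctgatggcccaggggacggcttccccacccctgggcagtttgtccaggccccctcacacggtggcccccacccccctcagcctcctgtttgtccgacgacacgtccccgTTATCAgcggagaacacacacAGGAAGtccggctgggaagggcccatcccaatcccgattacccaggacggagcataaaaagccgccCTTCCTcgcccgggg
SENCR, within FLI1, chr11:128696024-128696273, minus strand, with 1 RUNX and 2 ETS matches: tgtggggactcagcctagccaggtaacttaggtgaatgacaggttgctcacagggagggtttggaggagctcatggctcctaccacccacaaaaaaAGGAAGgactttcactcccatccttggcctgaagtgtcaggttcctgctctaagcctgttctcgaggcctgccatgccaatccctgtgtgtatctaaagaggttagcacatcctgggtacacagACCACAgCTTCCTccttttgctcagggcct
TBXAS1, an inner start, chr7:139829014-139829263, plus strand, with 1 AP-1 and 4 ETS matches: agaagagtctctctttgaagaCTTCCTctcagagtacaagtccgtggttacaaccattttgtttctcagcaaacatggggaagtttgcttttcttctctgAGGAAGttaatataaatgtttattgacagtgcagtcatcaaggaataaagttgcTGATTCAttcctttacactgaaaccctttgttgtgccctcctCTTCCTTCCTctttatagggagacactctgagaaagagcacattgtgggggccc
CSF1R, an inner start, chr5:150086555-150086804, minus strand, with 1 RUNX and 1 ETS match: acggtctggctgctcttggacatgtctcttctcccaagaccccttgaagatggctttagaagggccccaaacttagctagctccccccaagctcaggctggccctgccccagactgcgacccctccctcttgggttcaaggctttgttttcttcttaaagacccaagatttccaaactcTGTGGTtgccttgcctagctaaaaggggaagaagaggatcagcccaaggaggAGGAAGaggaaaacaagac
JUNB, chr19:12791236-12791485, plus strand, with 1 ETS match: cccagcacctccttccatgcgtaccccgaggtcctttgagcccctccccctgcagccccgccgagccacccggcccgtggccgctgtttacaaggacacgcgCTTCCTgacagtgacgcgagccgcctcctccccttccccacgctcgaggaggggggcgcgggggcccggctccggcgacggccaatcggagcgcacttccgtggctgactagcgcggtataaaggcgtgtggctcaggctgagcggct

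A match is a description of these letters and not evidence of binding. The start of SENCR, a long noncoding RNA gene on the strand opposite FLI1, lay 2 bp from the summit of its peak. That distance was 67 bp for TBXAS1, 132 bp for the inner EGFL7 start and 790 bp for GFI1B. At JUNB and CSF1R the start was covered by a wide peak whose summit lay 1375 bp and 4507 bp away.

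The clusters were long and unevenly filled. The median span was 47.5 kb, with a range from 5.39 to 166.8 kb, against a median of 18.6 kb in the 4862 other clusters of at least 3 peaks. The number of peaks ran from 3 to 26 with a median of 7 (other clusters 4), and peaks covered a median of 46.8% of the span (other clusters 28.2%). Their scores ran from 1028 to 48265 fold-kb with a median of 1426, against a median of 149 in the other clusters. Together the 300 spanned 15.7 Mb, held 7.24 Mb of peak width and carried 19.97% of the summed score of all 31095 clusters. The plot of score against rank shows 3 clusters well above a curve that has no step at the cutoff.

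**Figure D1:**
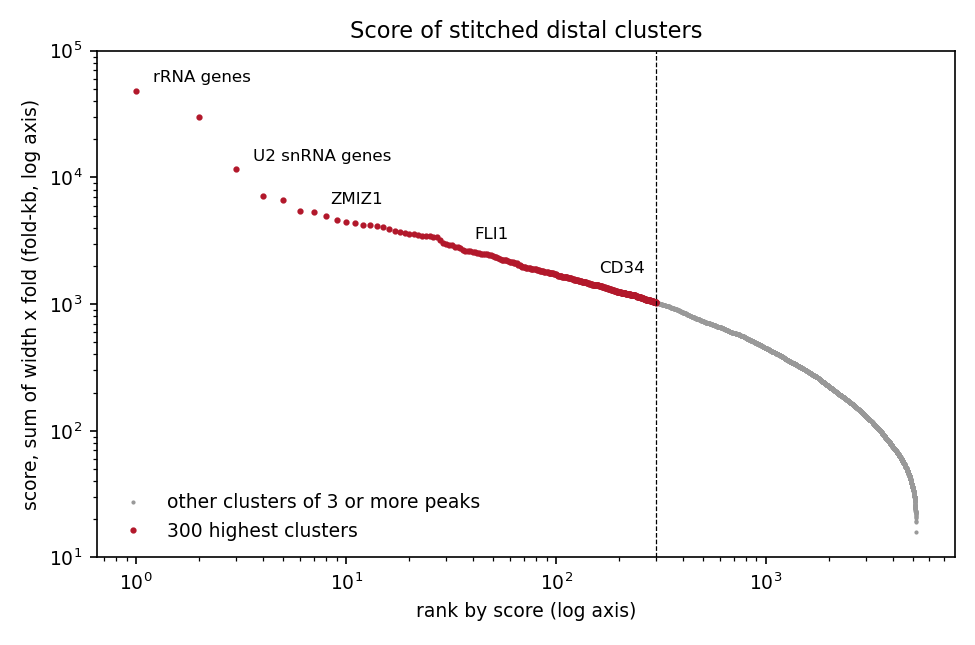
Score in fold-kb (vertical, log axis) against rank (horizontal, log axis) for the 5162 clusters of at least 3 peaks; red points are the 300 kept, grey points the others, and the dashed line is the cutoff. The first 3 clusters lie between 11563 and 48265 fold-kb, and scores pass the cutoff without a gap, from 1028 at rank 300 to 1025 at rank 301.

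In 176 of the 300 clusters (58.7%) a single peak gave over 50% of the score, near the 53.7% of the other clusters. A peak wider than 5 kb was present in 225 clusters (75%) and in 6.13% of the others. Width and fold enter the score, so contrasts in either follow at least in part from the rule. The highest fold in a cluster had a median of 133 (range 51.1 to 1713), against 43.5 in the others. Peaks under 10-fold, which the score did not use, lay in these intervals at a median of 17.6 per 100 kb, beside 15.7 in the other clusters.

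**Figure D2:**
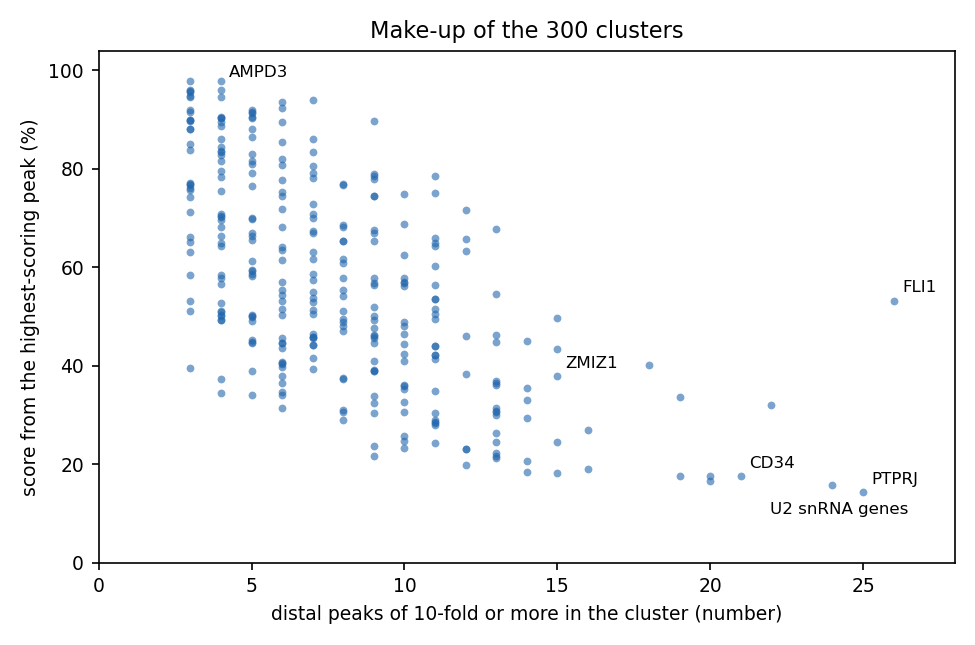
Share of the score from the highest-scoring peak (vertical, %) against the number of peaks used (horizontal) for the 300 clusters, each point a cluster. Clusters of few peaks reach 97.9% at AMPD3, whereas the many peaks at CD34 and PTPRJ leave 17.6% and 14.3% to the highest-scoring peak. At FLI1, with 26 peaks, that share is 53.2%, near the median of 54.3% over the 300.

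The first 3 ranks were arrays of structural RNA genes, which are present in many copies in the genome. Rank 1, chr21:8376452-8472254, held 8 rRNA genes and scored 48265 fold-kb from 4 peaks, of which the highest reached 581-fold and the widest 42.8 kb. Rank 2, chr21:8193410-8261096, held 4 rRNA genes and scored 29882 fold-kb, with 86.1% of that from 1 peak of 42.9 kb. Rank 3, chr17:43232907-43373277, held 14 snRNA genes including RNU2-1, the U2 spliceosomal RNA gene, and divided 11563 fold-kb over 24 peaks with a maximum of 692-fold. These 3 clusters carried 14.7% of the summed score of the 300.

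Other repeated or mitochondrial-like sequences ranked high as well. Rank 11, chr1:161420694-161504013, held 26 tRNA genes, 13 peaks and 4359 fold-kb. Altogether 13 clusters overlapped an rRNA, snRNA or tRNA gene, and they carried 18.04% of the score. At rank 9, chr11:10477189-10510382 by AMPD3, 97.9% of the score came from 1 peak of 2.65 kb at 1713-fold, the highest fold in any of the 300. That peak lies over MTRNR2L8, a nuclear copy of mitochondrial rRNA sequence, and MIR4485. The cluster of the shortest span, rank 103 at chr5:134923241-134928628 in PCBD2, held 3 peaks and 6 mitochondrial pseudogenes, and 100% of its score lay at noncoding gene ends. It was named after its values were seen. The part that copy number or ambiguous alignment has in these folds was not tested.

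Long nuclear RNAs of chromosome 11 gave a pair of neighbouring clusters. NEAT1, the scaffold of paraspeckles, lay in rank 8 (chr11:65362065-65455712, 4919 fold-kb), where a peak of 18.1 kb at 195-fold gave 71.7% of the score. MALAT1, an abundant nuclear RNA, lay in rank 10 (chr11:65468782-65511356, 4462 fold-kb) with a peak of 13.7 kb at 228-fold. There 88.3% of the score came from peaks with a summit within 1 kb of a listed transcript start.

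Coding loci filled most of the other leading ranks. Rank 4, chr1:156066095-156162074, overlapped RAB25, MEX3A, LMNA (nuclear lamins A and C) and SEMA4A (a semaphorin) and scored 7100 fold-kb, 74.5% of it from a peak 36.7 kb wide at 144-fold. Rank 5, chr5:337241-431573, lay wholly inside AHRR, the repressor of the aryl hydrocarbon receptor, with 11 peaks, a maximum of 333-fold and 6657 fold-kb. Rank 6, chr11:67238817-67292678, reached over KDM2A (a histone demethylase), GRK2 (a receptor kinase) and ANKRD13D and scored 5442 fold-kb from 4 peaks. Ranks 4 and 6 thus rested on 1 wide peak each, while the score of rank 5 was shared among several.

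ZMIZ1, a transcriptional coregulator, held rank 7 with 15 peaks over 126 kb (chr10:79220169-79346311) and 5304 fold-kb. Its 3 strongest peaks by score were 12.6 kb wide at 159-fold, 20.9 kb at 64.5-fold and 8.55 kb at 123-fold. A second cluster in the same gene held rank 249.

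Ranks 12 to 15 mixed receptors, transporters and an AP-1 gene. Rank 12, chr17:40290655-40371720, overlapped CDC6 (replication licensing), RARA (a retinoic acid receptor) and GJD3 (a connexin) and scored 4246 fold-kb. Rank 13, chr14:73723423-73788499, lay wholly inside MIDEAS, a subunit of a histone deacetylase complex, with 9 peaks and 4226 fold-kb. Rank 14, chr13:95226435-95325425, overlapped ABCC4, a nucleotide and prostaglandin transporter found in platelets, with 4136 fold-kb. Rank 15, chr19:12760486-12797143, overlapped HOOK2, JUNB and PRDX2 with 4032 fold-kb, 91.5% of it from a single peak.

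Ranks 16 to 20 included 2 clusters over no coding gene. Rank 16, chr14:100640087-100716433, held 11 peaks over 4 long noncoding RNA genes, with its highest-scoring peak 46.0 kb from the imprinted gene DLK1, and scored 3929 fold-kb. Rank 17 (chr17:82193409-82268531, 3777 fold-kb) overlapped SLC16A3, a lactate transporter, and had a peak 34.1 kb wide. Rank 18 (chr10:102578617-102679668, 3709 fold-kb) overlapped TRIM8 (a ubiquitin ligase), SUFU (a Hedgehog pathway repressor) and ARL3 (a small GTPase). Rank 19 (chr2:27062312-27097420, 3664 fold-kb) drew 95.9% of its score from a peak at EMILIN1, an extracellular matrix protein gene. Rank 20 (chr1:234916962-234988089, 3595 fold-kb) lay over 3 long noncoding RNA genes, its highest-scoring peak 128 kb from TOMM20, with 90.2% of its score at listed starts.

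Other clusters stood out by number of peaks and span rather than by score. The FLI1 cluster, rank 34 at chr11:128603920-128758222, held the most peaks of the 300, 26 over 154 kb. PTPRJ, a receptor phosphatase gene, followed with 25 peaks over 166.8 kb at rank 172 (chr11:47915402-48082175), the longest span, and its highest peak reached 78.9-fold. The SPN and QPRT cluster, rank 29 at chr16:29594076-29722100, held 22 peaks over 128 kb, and the CD34 cluster 21 peaks over 112 kb. A cluster at CAMK2G (a calmodulin-dependent kinase) and PLAU (urokinase), rank 130 at chr10:73864886-73993992, spread 19 peaks over 129 kb. The map of 5 clusters sets wide single peaks and groups of narrow ones side by side.

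**Figure D3:**
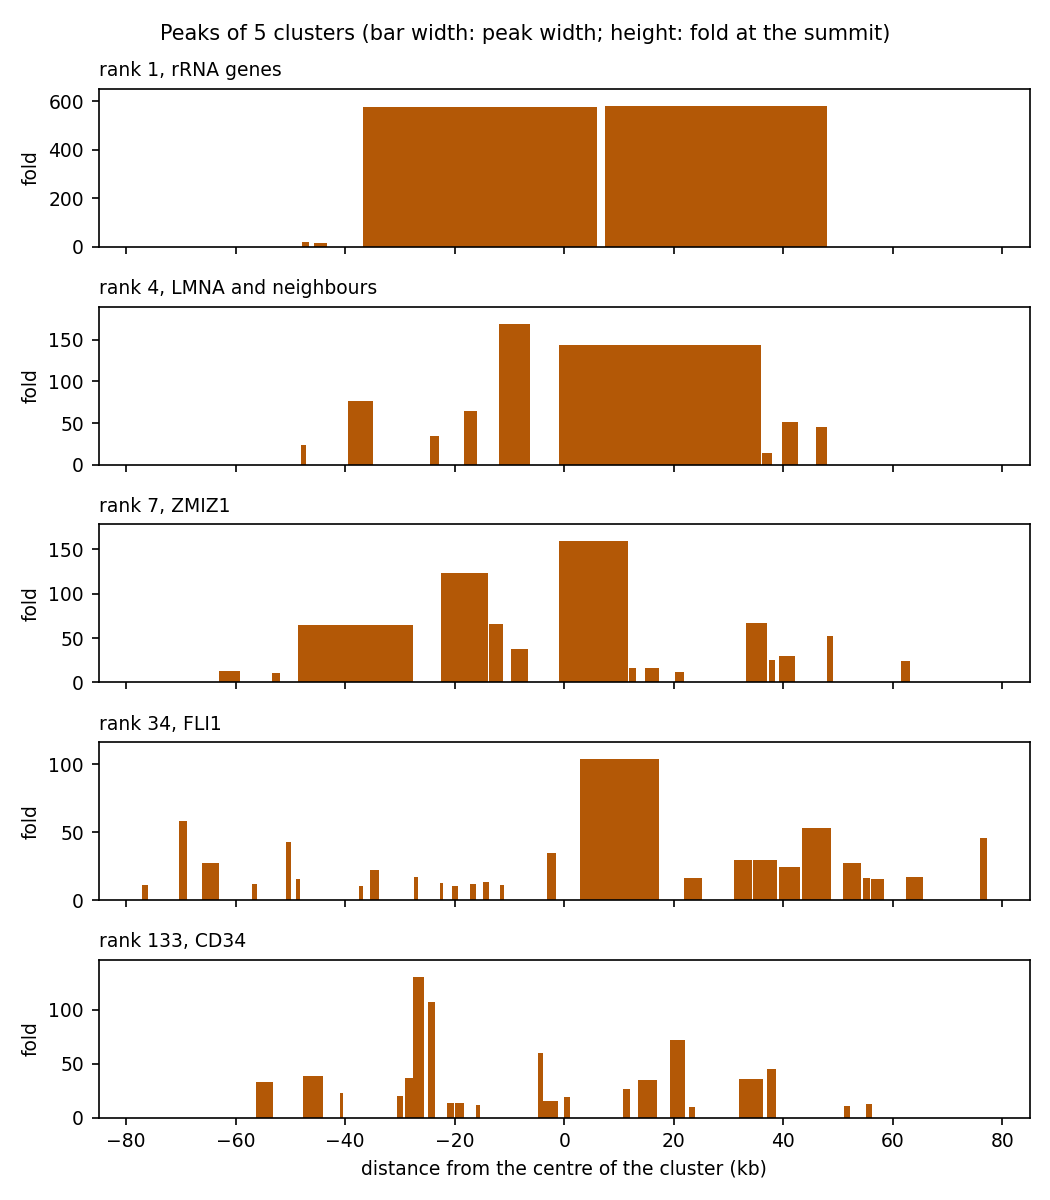
Peaks of 5 of the 300 clusters, with distance from the cluster centre in kb (horizontal) and fold at the summit (vertical, a separate linear scale for each panel). Each bar is 1 peak used in the score, as wide as the peak; the rRNA cluster is filled by 2 peaks near 580-fold, whereas FLI1 and CD34 are made of 26 and 21 mostly narrow peaks.

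Genes were then read against the clusters. Of 19126 autosomal coding genes, 382 (2.00%) overlapped one of the 300 by at least 1 bp, 960 (5.02%) lay within 50 kb and 287 (1.50%) were the nearest gene to a cluster's highest-scoring peak. Gene lists are set beside these shares without a test, because the members and lists were drawn up with results of the same peak list known and because long genes are more easily overlapped.

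Transcription factors of blood progenitors had the highest share of the 23 lists. Of 27 such genes, 7 (25.9%) overlapped a cluster and 9 (33.3%) lay within 50 kb. The count of 7 dropped to 3 when peaks had to reach 20-fold (GFI1B, LMO2 and ZFPM1) and to 3 when the score summed fold without width (ETV6, FLI1 and LMO2), and the order of the lists was not recomputed there. Their median gene length was 60.2 kb, against 24.5 kb for all coding genes and 30.3 kb for the 382 overlapped ones.

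ZFPM1, a cofactor of GATA factors, had the highest rank of the 7. Its cluster at chr16:88428156-88475092 (rank 22) scored 3524 fold-kb, 91.9% of it from a peak 17.8 kb wide at 182-fold that covered the 5′ end of the gene. A second cluster that overlapped ZFPM1 held rank 144 with 1453 fold-kb.

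FLI1, an ETS factor of megakaryocytes and endothelium, drew 53.2% of its 2827 fold-kb from a peak of 14.5 kb at 104-fold that covered the gene's lower-coordinate end. The other 25 peaks lay on both sides, and the next in score, 30.8 kb from a listed start, had 53.3-fold.

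GFI1B, a repressor needed in the erythroid and megakaryocyte lines, lay in rank 51 (chr9:132972354-133009364, 5 peaks, 2371 fold-kb). A peak of 15.9 kb at 114-fold across the gene's 3′ end gave 76.6% of the score, and the peak with the printed start reached 58.6-fold.

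The other 4 factors ranked lower and drew their scores from narrower peaks. LMO2, a bridging protein of the TAL1 complex, had 13 peaks and 1427 fold-kb at rank 149 (chr11:33866942-33945226), with 112-fold at its highest peak. ZBTB16, a zinc finger repressor, had 3 peaks at rank 212 (chr11:114071683-114089261) and 90.0% of 1214 fold-kb in 1 of them. IKZF1, which encodes Ikaros, held rank 225 (chr7:50329489-50369858, 8 peaks, 1193 fold-kb). ETV6, an ETS repressor, held rank 255 (chr12:11718592-11779526, 11 peaks, 1121 fold-kb). IKZF1, ETV6 and ZBTB16 contained their clusters within the gene.

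Some central regulators did not enter because their open chromatin formed fewer separate peaks. TAL1 lay in a cluster of 2 peaks with a score of 3153 fold-kb, GATA2 in one of 2 peaks with 1284 fold-kb and RUNX1 in one of 1 peak with 1164 fold-kb, all above the cutoff of 1028. In all, 66 clusters of 1 or 2 peaks scored at or above the cutoff, 31 of 1 peak and 35 of 2. The highest of them, chr1:628924-635084, was 1 peak at 4635-fold with 28557 fold-kb. The part that copy number or ambiguous alignment has in that fold was not tested. SPI1 and LYL1 lay within 50 kb of ranks 56 and 71 without overlapping them. Absence from the 300 is therefore no measure of how open a locus was.

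Of 18 surface proteins of progenitors, 2 (11.1%) overlapped and 4 (22.2%) lay within 50 kb. CD34, the sialomucin used to isolate progenitors, lay in rank 133 (chr1:207796614-207909016, 1504 fold-kb). Its highest-scoring peak, 2.03 kb at 131-fold, lay outside the gene and gave 17.6% of the score. CD34 was not the nearest coding gene to that peak. Most of the cluster's peaks and score lay outside CD34, and the highest-scoring peak inside the gene had 155 fold-kb at 36.4-fold. SPN, which encodes the leukocyte sialophorin CD43, lay in rank 29 and was overlapped by a peak of 8.28 kb at 118-fold, with 3037 fold-kb in all. CD47 and ENG were within 50 kb of ranks 272 and 247. KIT, the receptor of stem cell factor, had no cluster of the 300 within 50 kb, and its best cluster had 2 peaks and 131 fold-kb. PTPRC, the gene of CD45, reached 379 fold-kb with 4 peaks.

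Immediate-early factors of the AP-1 family overlapped in 3 of 16 genes (18.8%), with 5 (31.2%) within 50 kb. JUNB lay wholly under a peak of 15.6 kb at 237-fold in rank 15. FOS lay in rank 111 (chr14:75258041-75308384, 8 peaks, 1626 fold-kb), where the highest-scoring peak, 151-fold, was separate from the gene and the highest peak reached 194-fold. FOSB lay in rank 134 (chr19:45418774-45479412, 8 peaks, 1500 fold-kb). FOSL2 and JUND were within 50 kb of ranks 280 and 295.

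Signalling genes for cytokines and adhesion overlapped in 4 of 25 (16%), with 8 (32%) within 50 kb. SKI, a repressor of TGF-beta signalling, lay in rank 123 (1556 fold-kb), and TGFB1, the ligand, in rank 167 (1363 fold-kb). RASA3, a RAS and RAP inhibitor of blood cells, lay in rank 126 with 15 peaks (1542 fold-kb) and a second time in rank 221. PIK3R5, a regulatory subunit of PI3-kinase gamma, lay in rank 257 with 15 peaks (1120 fold-kb). The feedback inhibitors SOCS1 and CISH and the kinases PIM1 and PIM3 lay within 50 kb of ranks 254, 187, 102 and 263.

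Among 20 Kruppel-like and zinc finger regulators 3 (15%) overlapped. Besides ZMIZ1 these were ZFP36L1, an mRNA decay factor, in rank 146 (1441 fold-kb) and KLF7 in rank 195 (1250 fold-kb). At KLF7, 90.4% of the score came from a peak of 5.32 kb at 213-fold.

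Lists for mature blood lines gave up to 2 overlaps each. Of 19 megakaryocyte and platelet genes 2 (10.5%) overlapped: TBXAS1, thromboxane synthase, in rank 193 (chr7:139828470-139919198, 13 peaks, 1267 fold-kb) and MYH9, non-muscle myosin, in rank 292 (16 peaks, 1039 fold-kb). CSF1R, the macrophage colony-stimulating factor receptor, was the 1 of 23 neutrophil and monocyte genes (4.35%), in rank 256 (chr5:150024358-150087485). It had 68.7% of 1121 fold-kb in a peak of 7.34 kb at 105-fold. No overlap was seen for 23 erythroid genes, 12 mast cell and eosinophil genes, 12 macrophage genes or 16 T and NK lymphocyte genes. The erythroid factor KLF1 reached 309 fold-kb in 3 peaks. CD79A, a B-cell receptor subunit, was the 1 of 13 B lymphocyte genes (7.69%), in rank 200 with RPS19 and ARHGEF1, so its place in a B-cell list is shared with neighbours.

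Lists of other tissues were read in the same way. At the 2.00% share of all coding genes, a list of 10 to 16 genes may have no overlap in any cell type. These counts therefore do not check the labelled cell type. Endothelial genes overlapped in 2 of 16, a larger share than for progenitor surface proteins or megakaryocyte genes, and 3 (18.8%) lay within 50 kb. EGFL7, a vessel-secreted factor, lay wholly under a peak of 22.6 kb at 36.5-fold in rank 24 (3455 fold-kb), and NOS3, endothelial nitric oxide synthase, lay in rank 81 (1864 fold-kb). PDGFRB was the 1 of 14 mesenchymal genes (7.14%), in rank 276, which neighbours the CSF1R cluster. None of 15 pluripotency, 16 hepatocyte, 12 neuronal or 10 keratinocyte genes overlapped a cluster or lay within 50 kb of one. The pluripotency genes POU5F1 and NANOG had gene-end folds of 1.93 and 2.42 and no distal cluster of their own, and SOX2 had an end fold of 17.6. Endothelial and blood progenitors share several of these genes, and which cells of the pool opened them was not tested.

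Lists of growth genes gave 1 or 2 overlaps each. MXI1, an antagonist of MYC, was the 1 of 14 MYC network genes (7.14%), in rank 207. CCND2 was the 1 of 24 ribosome and common MYC target genes (4.17%), in rank 266 with 3 peaks. The cell cycle list gave 2 of 25 (8%), CDC6 in rank 12 and CCND3 in rank 224. The peaks of rank 12 inside CDC6 gave only 4.77 and 34.7 of its 4246 fold-kb, so most of that score lay outside CDC6. ETV6 was the 1 of 25 leukaemia genes (4%). The bar plot gives all 23 lists.

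**Figure D4:**
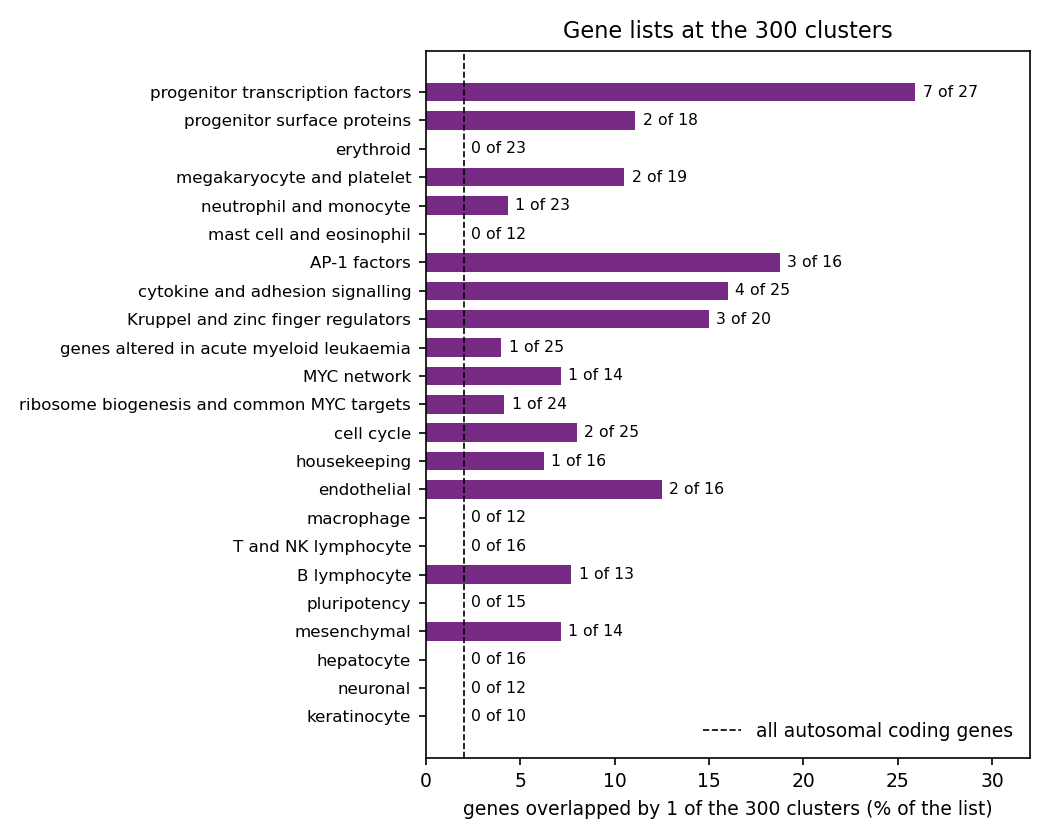
Percent of each list's genes overlapped by one of the 300 clusters (bars, horizontal axis), with the number overlapped of the number matched beside each; the dashed line is the 2.00% of all 19126 autosomal coding genes. Progenitor transcription factors reach 25.9% and AP-1 factors 18.8%, and 8 lists are at 0; with 10 to 27 genes a list, 1 gene moves a bar by several percentage points.

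Gene ends were read separately. The highest summit within 1 kb of a gene end, which the rule excluded from the score, had a median of 35.0-fold over the 382 overlapped genes and 46.9-fold over all coding genes. A summit was present at an end of 84.8% and 83.7% of these genes. Wide peaks whose summits lie farther away cover some ends without being counted, as at JUNB and EGFL7, which have 0 here. Among genes under 30 kb the medians were 21.95 and 33.5, and among longer genes 49.2 and 58.5, so the order was the same in both length classes. The order depends on the rule: the median over overlapped genes was 57.1-fold, above that of all coding genes, when whole peaks and not only summits had to lie over 1 kb from gene ends.

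The word distal holds only for the gene ends the rule used. In 146 clusters (48.7%) a peak summit lay within 1 kb of a listed transcript start, coding or noncoding, against 19.9% of the other clusters. Counted over peaks, the shares were 8.18% and 5.46%. The 300 hold more and wider peaks per cluster, and the part of this in the counts of clusters was not separated. In 184 (61.3%, others 21.2%) a peak covered a whole 300-base window around a start. In 55 clusters (18.3%, others 8.14%) peaks with a summit within 1 kb of a listed start gave over 50% of the score. Counted by summit in the same way, peaks at listed starts carried 16.96% of the score of the 300 (others 13.8%), and peaks at noncoding gene ends 31.7% (others 15.3%). A wide peak that covers a start but has its summit farther away, as at JUNB, adds nothing to the share at starts. The 196 peaks at starts had a median of 85.1-fold and the remaining peaks 30.1-fold. In 115 clusters (38.3%, others 76.9%) neither measure placed a listed start. Listed starts cover 15101 of the 19126 autosomal coding genes, and FLI1, ZMIZ1, LMO2, TRIM8, EMILIN1 and SPN are among those without one. The counts and shares above can therefore miss coding starts, and the 115 clusters are not shown to be free of promoters. The label enhancer cluster was thus not tested for activity and does not exclude promoters.

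Most clusters lay in or over genes. A coding gene was overlapped by 244 of the 300 (81.3%), against 65.6% of the other clusters, and 93 (31%) spanned more than 1 coding gene, against 10.7%. Only 75 (25%, others 37.5%) were wholly inside 1 gene, 47 lay over noncoding genes alone and 9 over no gene. Longer clusters meet more genes by length alone, and this was not separated from their position.

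Chromosome 19, the most gene-dense autosome, also had the most clusters for its length. It held 29 clusters, or 4.95 per 10 Mb, and 12.1% of its clusters of at least 3 peaks were among the 300. Chromosome 1 held 31, at 1.25 per 10 Mb. Chromosomes 4, 13 and 18 held 4, 3 and 2, at 0.210, 0.262 and 0.249 per 10 Mb. Chromosome 20 had 5 of its 165 clusters of at least 3 peaks among the 300. Of these 5, 3 lay between 31 and 34 Mb, beside 11 other clusters of at least 3 peaks in that interval. The median fold of all peaks in that interval was 3.24, and 3.63 over the rest of the chromosome.

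**Figure D5:**
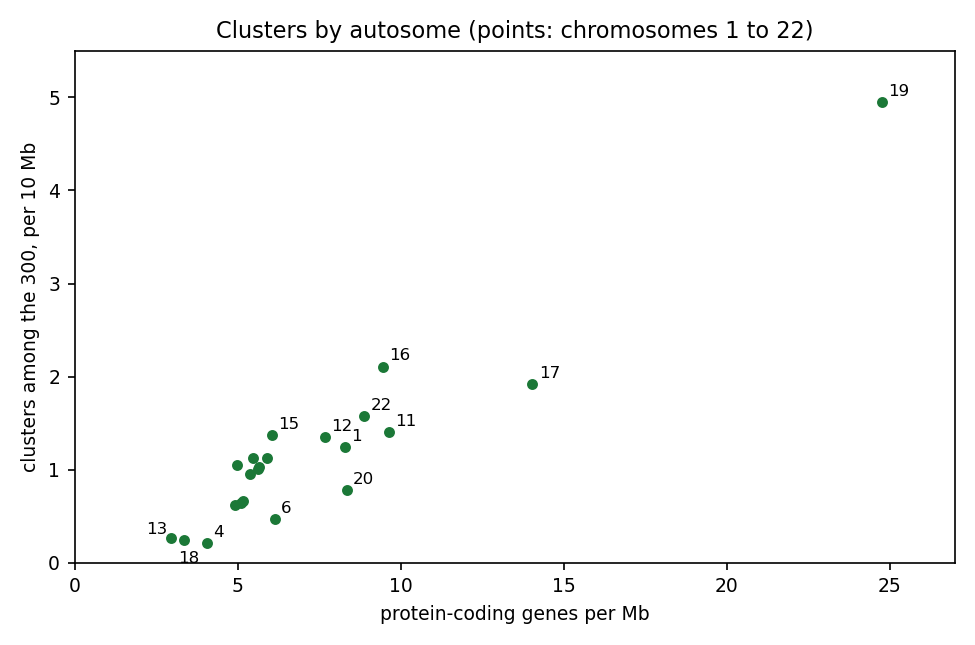
Clusters among the 300 per 10 Mb (vertical) against protein-coding genes per Mb (horizontal) for chromosomes 1 to 22, each point a chromosome, 13 of them numbered. Chromosome 19 stands at 24.8 genes per Mb and 4.95 clusters per 10 Mb, and chromosomes 4, 13 and 18 at the lower left.

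Some clusters were close neighbours that the joining distance kept apart. Within 100 kb of another of the 300 lay 63 clusters, in 30 runs of at most 3. NOTCH1, a receptor needed for blood stem cell emergence, lay in rank 60 beside the EGFL7 cluster of rank 24. The run on chromosome 20 joined ID1, an inhibitor of helix-loop-helix factors, in rank 38 with BCL2L1, the gene of the survival factor BCL-XL, in rank 27. CMIP held a pair on its own (ranks 168 and 192). The runs were named after their members were seen.

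MicroRNA genes lay in 37 of the clusters. Of 1461 autosomal hairpins, 46 fell within the 300 and 28 of these under a peak used in the score. The other clusters of at least 3 peaks held 129, over a summed span of 105.1 Mb against 15.7 Mb for the 300. Whether 46 exceeds what span and gene density would give was not tested. The 8 highest-ranked miRNA genes were MIR6724-4 and MIR10396B (rank 1), MIR6724-2 (rank 2), MIR4485 (rank 9), MIR4505 (rank 13), MIR6787 (rank 17), MIR5189 (rank 22) and MIR200C (rank 23), which MIR141 ties in the same cluster and peak. The first 4 lie in the rRNA arrays and the mitochondrial-like peak. The mature forms below were chosen after the values were seen, as known miRNAs of blood and vessels or as pairs with a shared seed. Capitals mark the seed, bases 2 to 8.

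miR-126-3p, rank 24, inside EGFL7, chr9:136670653-136670674: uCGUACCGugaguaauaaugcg
miR-23a-3p, rank 35, chr19:13836595-13836615: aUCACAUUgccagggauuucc
miR-27a-3p, rank 35, chr19:13836447-13836467: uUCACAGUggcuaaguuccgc
miR-24-3p, rank 35, chr19:13836289-13836310: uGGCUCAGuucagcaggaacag
miR-29b-3p, rank 133, chr1:207802450-207802472: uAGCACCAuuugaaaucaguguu
miR-29c-3p, rank 133, chr1:207801865-207801886: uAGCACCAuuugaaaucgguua
miR-132-3p, rank 148, chr17:2049929-2049950: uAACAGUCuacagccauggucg
miR-212-3p, rank 148, chr17:2050290-2050310: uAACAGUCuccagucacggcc

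The miR-126 hairpin lay under the 36.5-fold peak that covers EGFL7, its host gene. The 3 hairpins of the miR-23a, miR-27a and miR-24-2 group lay under 1 peak of 138-fold, and their seeds differ. miR-29b and miR-29c share the seed AGCACCA and lie in the CD34 cluster, but under none of its peaks of at least 10-fold. miR-132 and miR-212 share the seed AACAGUC and lay under a peak of 46.3-fold in a cluster at HIC1 and SMG6. Accessibility of a hairpin does not measure the mature RNA.

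Motif letters were counted in the start windows. In 242 coding-gene windows of 300 bases (143 genes), ETS matches were found in 38.8%, against 33.97% of 889 windows under peaks of the other clusters and 28.7% of all 21156 autosomal coding windows. SP and KLF matches stood at 26.9%, 21.7% and 20.3%, and RUNX matches at 11.6%, 10.3% and 9.27%. GATA matches went the other way, at 6.61%, 10.2% and 11.2%, as did E-box matches at 5.37%, 7.76% and 7.34%. AP-1 matches stood at 4.55%, 6.75% and 5.30%. The median GC content of the windows was 66% in the 300, 63.6% in the other clusters and 62% in all coding windows, and its part in these shares was not tested.

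In 165 long noncoding RNA windows under the clusters' peaks, ETS matches were found in 40.6%, against 34.1% of 693 such windows under peaks of the other clusters and 28.9% of all 12569. AP-1 matches stood at 12.7%, 10.1% and 8.61%, and SP and KLF matches at 17.6%, 10.97% and 6.68%. GATA matches stood at 13.9%, 13.4% and 20.3%, RUNX matches at 12.1%, 13.1% and 13.8%, and E-box matches at 4.24%, 5.48% and 4.55%. The median GC content was 60.4%, 58% and 49.6%. Windows of 1 gene overlap in part, so they are not independent, and no window says what lies at the distal summits themselves.

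Scores just inside and just outside the cutoff were close. The last inside were chr7:44983764-44997077 at the noncoding gene SNHG15 near MYO1G (1030 fold-kb, 3 peaks), and rank 300, chr15:89993181-90040993 in ZNF710 (1028 fold-kb, 8 peaks). The first outside were chr17:45371017-45446703 at ARHGAP27 and PLEKHM1 (1025 fold-kb, 10 peaks) and chr8:22688515-22717336 at EGR3 and PEBP4 (1020 fold-kb, 4 peaks).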

How the data were processed

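Per the labels' protocols, nuclei of 50000 cells were transposed for 45 minutes and sequenced from both ends (75 nucleotides). The submitters' processing notes name Bowtie2 2.2.8, Picard 2.2.4 and Trim Galore 0.6.5, without roles, and the builds hg38 and GRCh38.p13. MACS 2.1.0 and GENCODE 36 stand in the peak names of the deposited list. Read filters, any shift for the transposase and the libraries pooled are not given in the sources used here.

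The deposited list gives each peak's position, the authors' score, fold (a ratio to background), −log10 p and −log10 q values, and a summit offset. The score column and the −log10 q values were not used. A background constant along the genome would correct neither copy number nor mappability.

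Clusters were built in Python 3.11.15 (scipy 1.17.1, pandas 2.3.3, numpy 2.4.6) and drawn in matplotlib 3.10.9. The rule was tested on simulated data, where 675 clusters of at least 3 peaks were planted and the 300 that scored highest were all recovered. Genes, starts and miRNAs came from RefSeq tables (GRCh38.p14). Of 426 list entries 411 matched an autosomal coding gene. Named clusters are the first 20 ranks, the 5 of most peaks, the 5 longest, the 3 with the highest peak and the 2 on each side of the cutoff. Named genes are those of the lists that overlapped, up to 6 a list, and up to 2 without a cluster within 50 kb. For progenitor transcription factors the seventh, ETV6, is named under the leukaemia list. GATA2, PTPRC, KLF1 and the genes within 50 kb were named after their values were seen. The members and lists were chosen with earlier results of these data known. The peak list holds no library values, so no test or comparison between groups was run. Sequences of distal peaks were not used here.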

Additional observations from a re-analysis of the deposited data

How the results depend on the processing

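Over 12 alternatives, the number of the 300 clusters that overlapped a coding gene ran from 213 to 280. Clusters of enough peaks numbered 11091 with 2 or more peaks, 1532 with 5 or more, 11101 at 5-fold, 1711 at 20-fold and 2619 with gaps of 5 kb, against 5162. Coding genes overlapped numbered 823 with gaps of 25 kb and 251 when the whole peak had to lie over 1 kb from gene ends, against 382. The median end fold of overlapped genes was 53.9 with gaps of 25 kb, 57.1 with whole peaks over 1 kb from ends and 52.9 with summits over 2.5 kb from ends, against 35.0. In these 3 settings it lay above, not below, the 46.9 of all coding genes. Of the 300 clusters, 186 were met again with gaps of 5 kb and 194 with a score that sums fold without width. Progenitor factors overlapped fell from 7 to 3 in number at 20-fold (GFI1B, LMO2 and ZFPM1) and also with summed fold (ETV6, FLI1 and LMO2). TAL1 and GATA2 entered with 2 or more peaks or at 5-fold, and RUNX1 with gaps of 25 kb. With summits also kept over 1 kb from every listed start, or from every noncoding gene end, 227 and 226 clusters were met again; these settings were chosen after seeing the data. No paired analysis was possible because the list holds no library values. Depth per library is unknown, and regions with many copies in the genome or wide merged peaks weigh most in the score.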
